A study of Mus musculus with 8 samples.

Results

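MeRIP-seq maps N6-methyladenosine (m6A) on mRNA, and the regions described here carried an m6A peak in every library of mouse embryonic fibroblasts (MEFs) and were more enriched after nutrient starvation. The MEFs were wild-type C57BL/6 cells from day 13.5 embryos, used at passage 5 to 6. Control cells were untreated, and starved cells spent 2 h in nutrient-deprived medium. Each group had 2 immunoprecipitated (IP) libraries, made with an antibody against m6A, and 2 input libraries, made from mRNA without the antibody. The labels do not say whether the replicates came from separate embryos or cultures, so the spread between them may be technical. Peaks of the 4 IP libraries that shared at least 1 bp were merged into 21168 regions. Of these, 2257 held a peak in all 4 lists and are called constitutive below. In each list the peak with the highest fold enrichment, the ratio of IP to input given by the authors, stood for the region. In 516 constitutive regions, 22.9% of the 2257, each starved value was above each control value, and these are the higher regions. The reverse order was found in 407 regions, the lower regions, and the other 1334 had no order. The higher regions were chosen by the order of these 4 fold enrichments, so their enrichment is described and not tested.

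m6A is placed on nascent mRNA by a methyltransferase complex built around METTL3 and METTL14, with adaptors such as WTAP, VIRMA and ZC3H13. It is removed by the demethylases FTO and ALKBH5 and bound by YTH domain proteins such as YTHDF3, which affect the translation and decay of the mRNA. The methylated adenosine usually sits in a short motif called DRACH, of which GGAC is the best known form, and m6A is known to be dense in long internal exons and around stop codons. Nutrient starvation lowers insulin and mTORC1 signalling and induces autophagy, and the study asked which mRNAs are methylated differently under it.

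The 12 higher regions with the largest gap, among those whose highest peaks in the 4 lists share a base and a gene name, are shown first by their sequence. The gap is the lower starved value divided by the higher control value. For 11 of them, 29 nt of transcript are printed around the GGAC followed by A, C or T whose A was nearest to the centre of the peaks, or around the nearest other DRACH where no such GGAC had its A within 100 nt of the centre. The 5 bases of the motif are in capitals, all sequences run 5′ to 3′ on the transcribed strand, and coordinates are on mm10 (GRCm38). They come from GENCODE M21 transcripts. Which adenosine is methylated cannot be read from a peak, so the capitals mark a match and not a site.
Samd8 (chr14:21775400-21775428, plus strand, coding sequence): tgctcgaagactGGACCcagagtactgga
Fancm (chr12:65121787-65121815, plus strand, coding sequence): aaacatcccgaaGGACAgagaacactccg
Tom1l2 (chr11:60229784-60229812, minus strand, 3′ UTR): cttgacacttatGGACAgcactcctaaac
Cluh (chr11:74661747-74661775, plus strand, coding sequence): ctatggctccatTGACTttggcaagacgg
Kin (chr2:10092150-10092178, plus strand, coding sequence): aaaggaccgcacGGACAgacgcctggtta
Usp34 (chr11:23364179-23364207, plus strand, coding sequence): ctgaaaggaatgGGACAaatagtggaact
Slc35e1 (chr8:72483167-72483195, minus strand, 3′ UTR): tggggggcccttGGACTctagaggagcag
Nfic (chr10:81400753-81400781, minus strand, 3′ UTR): gccatcacccacAGACCaggcaatcctgg
Zbtb21 (chr16:97952850-97952878, minus strand, coding sequence): tgtctttcagctGGACTtctgtgagcctg
Dennd2a (chr6:39523368-39523396, minus strand, coding sequence): agatggccaagaGGACCacctgccatcct
Rev1 (chr1:38088355-38088383, minus strand, coding sequence): gaagagcaacgcGGACTtcagagactgca

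The largest gap of all belonged to Socs6, a suppressor of cytokine signalling that serves as a ubiquitin ligase adaptor. Its region in the coding sequence had fold enrichments of 6.16 and 2.3 in control replicates 1 and 2 against 63.95 and 55.7 in starved replicates 1 and 2, and values below are in the same order. Thus the lower starved value was 9.04 times the higher control value. The starved replicates lay close to each other and the control replicates further apart. Samd8, an enzyme of the endoplasmic reticulum related to sphingomyelin synthases, had 5.66 and 5.52 against 31.83 and 35.08, with both replicate pairs close together. Tom1l2, an adaptor of endosomal sorting, carried its region in the 3′ UTR, 308 nt after the stop codon, with 4.1 and 5.7 against 27.37 and 39.92. Cluh, an RNA-binding protein for mRNAs of mitochondrial proteins, had 2.9 and 4.38 against 20.5 and 27.93. All of these control values were well below the medians of constitutive regions, which were 18.3 and 16.6 in the control libraries.

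Several of these regions lay in genes of DNA repair. Fancm, a DNA translocase of the Fanconi anaemia pathway, had fold enrichments of 11.45 and 16.57 in control cells against 101.22 and 86.8 after starvation. Rev1, a translesion DNA polymerase, had 25.59 and 22.91 against 94.59 and 115.65, and it differed from the regions above in that its control values were already above the constitutive medians. Kin, a DNA- and RNA-binding protein linked to replication and repair, had 6.84 and 21.85 against 97.61 and 107.14, with the wide spread in the control pair. Elsewhere in its coding sequence, Fancm had another constitutive region with no order (31.11 and 50.67 against 39.3 and 25.08). These genes were put together after their values were seen, and no theme is drawn from them.

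The rest of the 12 were Usp34, a deubiquitinase (4.7 and 6.01 against 34.08 and 26.71), Zbtb21, a zinc finger protein (15.24 and 7.83 against 57.41 and 56.62), and Dennd2a, an exchange factor for Rab GTPases (5.16 and 4.17 against 19.1 and 29.92). In the 3′ UTR lay the regions of Slc35e1, named as a solute carrier (4.1 and 5.06 against 30.62 and 22.06), and Nfic, a nuclear factor I transcription factor (7.86 and 4.67 against 32.84 and 31.62). In each of them the starved values were apart from the control values by more than either replicate pair spanned. The regions of Samd8, Usp34 and Rev1 were exactly as wide as the exon that held them, 593, 722 and 704 nt.

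**Figure D1:**
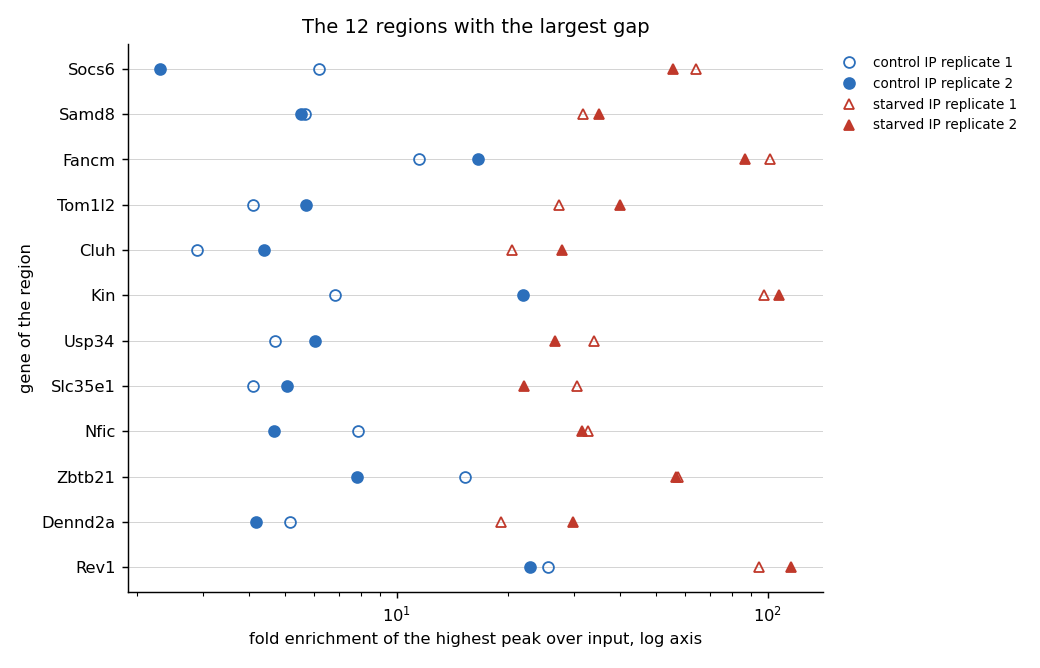
Fold enrichment over input (log axis) in each of the 4 IP libraries for the 12 higher regions with the largest gap among those whose highest peaks share a base and a gene name. Circles are control replicates and triangles starved replicates, open for replicate 1 and filled for replicate 2, and every triangle lies to the right of every circle of its row, as the choice of the regions requires.

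Most gaps were far smaller than these. The median gap over the 516 regions was 1.44, with quartiles of 1.18 and 1.85. It was at least 1.5 in 239 regions (10.6% of constitutive regions), at least 2 in 112, at least 3 in 38 and at least 4 in 15. At the threshold the order rests on the second decimal. Plec, which encodes the cytolinker plectin, was the last region inside, with 77.5 and 117.35 against 117.4 and 184.94. Mis12, a kinetochore protein, had 12.81 and 8.6 against 12.84 and 28.43, and Btbd7 had 11.13 and 6.48 against 11.18 and 25.45. Just outside lay Setdb1, a histone H3 lysine methyltransferase, with 27.54 and 35.62 against 35.6 and 53.03. Pcdh19, a protocadherin, had its second control value and its first starved value tied at 16.7, and a region of Fbln5, a fibulin of elastic fibres, had the same tie at 5.85. Regions on either side of the threshold were thus not distinct.

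Between replicates the spread was of a size that matters for these gaps. The SD of the replicates on the log2 scale had a median over all constitutive regions of 0.50 in control and 0.60 in starved cells (n = 2 each), against 0.37 and 0.33 in the higher regions, where a small spread is favoured by the rule. The mean log2 difference between starved and control cells had a median of 1.22 in the higher regions and 0.10 over all constitutive regions. Across the 2257 regions the log2 fold enrichment correlated with r = 0.75 between the control replicates and r = 0.59 between the starved replicates, and with 0.60 to 0.64 between libraries of different groups. These values are across regions of the same transcripts, which are not independent, and the starved replicates were no closer to each other than to the control libraries.

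The direction of the whole depends on the scale of the libraries. The median fold enrichment of constitutive regions was 20.3 and 20.1 in the starved libraries, and the library medians differed by 0.21 on the log2 scale. When each list was divided by its own median, 409 regions were higher and 529 lower, so that the share of higher among ordered regions was 43.6% in place of 55.9%. All of these 409 were among the 516. The 107 that lost their order had gaps of at most 1.22, and each of the 12 regions named first remained higher. Whether the shift of the medians is a property of the cells or of the libraries cannot be told from the files, which hold no reads or depths. In bulk samples, moreover, fewer cells of a type and less RNA per cell cannot be told apart, and neither can methylation of more molecules and methylation in more cells.

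**Figure D2:**
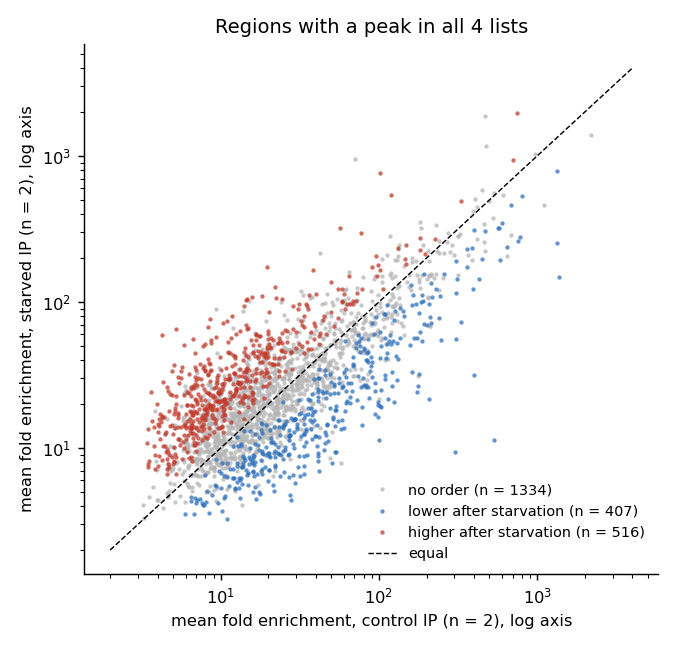
Mean fold enrichment of the 2 starved IP libraries (y axis, log) against that of the 2 control IP libraries (x axis, log) for the 2257 constitutive regions, one point per region. The 516 higher regions in red lie above the line of equal values and mostly at low control values, the 407 lower regions in blue below it, and the 1334 regions with no order in grey overlap both.

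Higher regions were weak in control cells and reached the middle of the range after starvation. Their median fold enrichment was 10.0 and 9.77 in control against 25.6 and 26.3 in starved replicates. Lower regions had 39.8 and 36.7 against 15.6 and 14.1. In 331 of the 516 higher regions both control values were below the constitutive median of their library. Since a low control value makes the order easier to meet, these levels are a description of the choice. Strongly enriched transcripts were also among them. Ddx24, a DEAD-box RNA helicase, had 617.82 and 784.72 against 887.15 and 1001.87, and Pag1, a membrane adaptor of Src family kinase control, had 88.64 and 115.48 against 1223.89 and 297.99, with a wide spread in the starved pair. After the scaling by medians Ddx24 lost the order and Pag1 kept it. The highest mean in starved cells belonged to the predicted gene Gm9008 (29.77 and 1456.57 against 1533.39 and 2431.05), of whose 31-mers in the window 63.5% also occur in transcripts of Rnf26 and other genes, so that its reads may be shared. Its control replicates were far apart, its gap was 1.05, and the order was lost after scaling. The Rnf26 region, itself a higher one, had all of its 31-mers in other genes, Gm9008 among them. Among the 496 higher regions placed on a transcript, 19 had at least 50% of their 31-mers in another gene and 448 had none.

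Peaks also carry a score that grows as their p-value falls, and many share the value 3100, which few exceed. Scores of at least 3100 were found in 127 and 89 higher regions in the control replicates (24.6% and 17.2%) and in 345 and 320 in the starved replicates (66.9% and 62.0%). Over all constitutive regions the shares were 43.5% and 33.0% against 51.8% and 46.0%, a shift in the same direction. The score comes from the peaks that chose the regions, so it is no independent measure. The highest peaks of higher regions had median widths of 614.5 and 555.5 bp in control cells against 678 and 586.5 bp after starvation, and those of all constitutive regions had 550 and 510 bp against 591 and 517 bp.

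The insulin and IGF pathway signals growth factor and nutrient supply through PI3K and AKT. Its list, like the others below, was written with earlier results of these data known, so its counts are a description. There were 14 constitutive regions, of which 6 were higher, 1 lower and 7 without order, against 22.9% higher over all constitutive regions. After scaling the counts were 5 higher and 1 lower. The regions are shown by the motif nearest to their centre, as above.
Igf1r (chr7:68226395-68226423, plus strand, near the stop codon): ctgctgatcctcGGACAcaccgaagcacg
Igf1r (chr7:68004068-68004096, plus strand, coding sequence): tcatcttcgagaTGACCaatctcaaggat
Insr (chr8:3153934-3153962, minus strand, 3′ UTR): cttggcgtccagGGACCtcagcttgggcc
Irs2 (chr8:11007808-11007836, minus strand, coding sequence): ctgaaacctaagGGACTgggccagagcaa
Pik3ca (chr3:32462831-32462859, plus strand, near the stop codon): agatgggagctgGGACTgcgagctggctc
Foxo4 (chrX:101254757-101254785, plus strand, 5′ UTR): aggcatggtgagGGACTgtggcaggctcc

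From the receptors to the transcription factor, the values were as follows. Igf1r, the IGF-1 receptor, had 2 higher regions: 1 was 63 nt after the stop codon, with 3.61 and 5.4 against 9.78 and 9.02, and the other in an early coding exon, with 4.87 and 3.13 against 8.01 and 7.02. Insr, the insulin receptor, carried its region far into the 3′ UTR, 1769 nt after the stop codon, with 15.88 and 12.6 against 32.16 and 29.21. In the third constitutive region of Igf1r, in the 3′ UTR, the starved replicates were far apart and there was no order (6.48 and 9.98 against 20.79 and 5.04).

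Irs2, the docking protein that links the receptors to PI3K, had 8.79 and 6.15 against 36.31 and 22.66. An exon of 9530052E02Rik on the opposite strand lies at the same position. Pik3ca, the catalytic subunit p110-alpha of PI3K, had 21.94 and 6.86 against 42.7 and 23.81, and its narrow gap of 1.09 was lost after scaling. Another constitutive region of Pik3ca, in the 3′ UTR, had no order (15.13 and 3.84 against 15.17 and 3.79). Foxo4, a FoxO transcription factor held out of the nucleus by AKT, had 2.6 and 14.81 against 48.63 and 56.24, with a gap of 3.28 in spite of the wide spread of its control values. Its region covers the first exon, and the GGAC shown is in the 5′ UTR, at the edge of the 200 nt window and not wholly inside it, while the centre is in the coding sequence. The related Foxo3, on which the study centred, had 2 constitutive regions, both without order (26.17 and 17.72 against 16.27 and 41.84, and 8.09 and 19.64 against 15.46 and 28.26). For this gene the study reported more m6A around the stop codon, from differential peaks and gene-specific MeRIP-qPCR. Both measures differ from the order of 4 fold enrichments used here.

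The m6A machinery itself had 18 constitutive regions, of which 4 were higher, 5 lower and 9 without order, and the counts of higher and lower were the same after scaling. The share of higher ones, 22.2%, was near the 22.9% of all constitutive regions, so the values below describe single regions. Zc3h13, an adaptor of the methyltransferase complex, had 42.36 and 30.14 against 98.86 and 125.97 in a long internal exon, while its 3 other constitutive regions had no order. Virma, another adaptor, had 10.07 and 9.65 against 14.79 and 12.67 in one coding exon and was lower in another (48.06 and 19.81 against 16.15 and 17.49). Alkbh5, a demethylase, had 22.98 and 6.42 against 36.17 and 34.53 in its first exon, and no order in the 3′ UTR (8.1 and 6.31 against 7.69 and 13.57). Ythdf3, the reader on which the study turned, had 51.93 and 36.57 against 82.48 and 68.87, in a region that covers its long coding exon. The other demethylase, Fto, was in the lower group with 178.24 and 234.08 against 24.81 and 18.37, so the machinery did not share a direction.

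The integrated stress response lowers translation through phosphorylation of eIF2-alpha and induces stress transcription factors. Of its 11 constitutive regions, 4 were higher, 1 was lower and 6 had no order, against 22.9% higher over all constitutive regions. The counts of higher and lower were the same after scaling. This list too was written with earlier results known and was not tested, so no direction is drawn from its 11 regions. Eif2ak2, the eIF2-alpha kinase PKR, had 22.73 and 23.72 against 33.65 and 33.39, with nearly equal replicates. Of its 31-mers 31.2% also occur in transcripts of other genes. Ppp1r15b, the constitutive targeting subunit of the eIF2-alpha phosphatase, had 6.37 and 6.89 against 15.23 and 19.75. In this region the highest peaks of the 4 lists did not all share a base, so the values may not describe a single site. A second constitutive region of Ppp1r15b, at the stop codon, had no order (21.66 and 3.91 against 13.65 and 17.38). Cebpg, a C/EBP partner of ATF4, had 11.57 and 7.45 against 33.2 and 28.38. Cebpb, another C/EBP factor, had 17.48 and 22.61 against 75.35 and 28.32, where the first starved library alone was far above the rest, and an exon of Tmem189 on the opposite strand lies at its position.

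Autophagy lists had too few constitutive regions to be set against the share of 22.9% higher over all constitutive regions. The core autophagy list had 8 constitutive regions, of which 0 were higher and 1 was lower. The lysosome and TFEB list had 0 higher and 2 lower of 3. The study chose 7 autophagy genes where hypermethylated peaks of these samples met peaks of a separate YTHDF3 RNA immunoprecipitation that rose with starvation. Of these genes, 4 had 5 constitutive regions, of which 1 was higher, 1 lower and 3 without order. The higher one was in Ap4m1, the mu subunit of the adaptor complex AP-4, and had 5.5 and 8.42 against 27.51 and 15.2, and the first control peak is assigned to the neighbouring Taf6, which leaves its comparison uncertain. As these genes were picked with these libraries, they are no independent evidence of a direction. In the nutrient sensing list 2 of 9 regions were higher and 3 lower: Prr5l, a partner of mTORC2, had 9.14 and 10.14 against 31.39 and 17.3, and Cab39, a scaffold of the kinase LKB1, had 8.73 and 3.06 against 9.75 and 10.2. Both regions were in the 3′ UTR, and in Prr5l the highest peaks of the 4 lists did not all share a base.

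**Figure D3:**
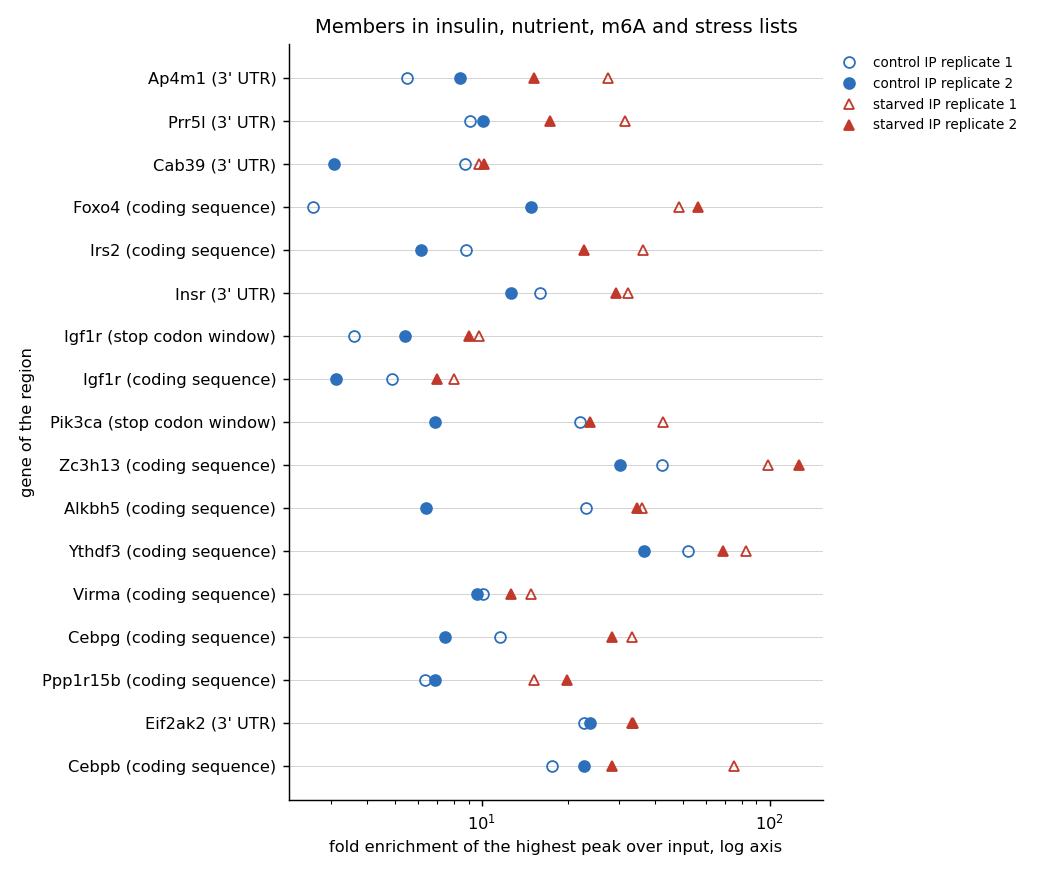
Fold enrichment over input (log axis) in each of the 4 IP libraries for the higher regions of the nutrient sensing, insulin and PI3K, m6A machinery, integrated stress response and study autophagy lists, with the transcript segment of each region's position in brackets. Symbols are as for the 12 largest gaps, and the distance between the control circles and starved triangles runs from nearly nothing in Cab39 and Pik3ca to more than 3-fold in Foxo4.

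Growth factor and matrix genes gave further higher regions. The MAP kinase list had 6 higher and 3 lower of 15, with the same counts after scaling. The share of higher regions over all constitutive regions was 22.9%, and the list was not tested against it. Map2k4, a kinase upstream of JNK, had 16.18 and 8.61 against 73.13 and 48.47. Spred2, an inhibitor of the Ras and ERK cascade, had 11.12 and 11.11 against 33.21 and 25.89, and Dusp1, a MAP kinase phosphatase, had 25.72 and 17.08 against 28.53 and 46.44. The immediate early list had 4 higher (33.3%) and 0 lower of 12, but 2 higher and 1 lower after scaling. Socs6 and Junb, an AP-1 subunit (7.76 and 5.87 against 35.82 and 15.32), kept the order, whereas Klf6 and Socs5 did not. In the matrix and integrin list the direction turned with the scale, from 10 higher (31.25%) and 6 lower of 32 to 5 higher and 10 lower. The longest distance in that list was in Tnc, which encodes the matrix protein tenascin-C, with 6.36 and 7.65 against 36.58 and 21.83.

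Chromatin modifiers had the most constitutive regions of any pathway list, 64, with 18 higher (28.1%) and 6 lower, and 14 of each after scaling. The higher ones included Kdm4b, a histone demethylase (17.86 and 11.44 against 61.79 and 148.41), Setd1b, a histone H3 lysine 4 methyltransferase (6.53 and 10.19 against 20.79 and 26.52), and Arid1b, a subunit of the BAF remodelling complex (11.51 and 4.21 against 25 and 25.64), and all of these remained higher after scaling. In the Kdm4b region the starved replicates were further apart than the control replicates. Genes named as zinc finger proteins (Zfp) had 11 higher (17.5%) and 13 lower of 63, or 7 and 17 after scaling. Solute carriers had 10 higher (31.25%) and 7 lower of 32, or 8 and 10. The smaller lists had 3 higher and 2 lower of 16 (Hippo), 3 and 1 of 10 (Notch), 2 and 0 of 13 (TGF-beta and BMP), 1 and 3 of 12 (Wnt) and 0 and 0 of 3 (cell cycle). Over all 2257 constitutive regions, 22.9% were higher and 407 regions were lower, or 409 and 529 regions after scaling. No list was tested against these values or against the others.

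The 516 regions belonged to 496 genes. Of these genes, 479 had 1 higher region, 16 had 2, and Myh9, the heavy chain of non-muscle myosin IIA, had 5. All 5 Myh9 regions were internal coding exons covered from end to end, 207 to 249 bp wide. Their enrichment in control libraries ran from 4.39 and 6.39 in exon 22 to 295.37 and 361.32 in exon 26, and in starved libraries from 19.11 and 8.65 to 541.14 and 439.05 in the same exons. Their shared direction follows from the choice of the regions, and 1 of the 5 lost its order after scaling. A sixth constitutive region of Myh9 had no order (3.72 and 2.77 against 2.31 and 5.84). Regions as wide as 1 annotated exon (within 2 bp) made up 136 of the higher regions (26.4%) and 25.8% of all constitutive regions, a like share.

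Higher regions of the same gene were counted next. Over genes with several constitutive regions, 165 regions had a higher region elsewhere in their gene, and 37 of these (22.4%) were higher themselves, near the background of 22.9%. Of the 165, 25 (15.2%) were lower, against 407 of the 2257 constitutive regions, and this difference was not tested. Both a higher and a lower region were present in 22 genes, in some of them far apart. In Mapk6, an atypical MAP kinase, the higher region had 6.75 and 3.72 against 17.34 and 28.38, and the lower region, nearer to the stop codon, had 40.89 and 26.74 against 15.19 and 9.64. Eif4g1, the scaffold of the cap-binding complex, was higher in the 3′ UTR (7.92 and 9.74 against 22.03 and 11.46) and lower in a coding exon (82.72 and 104.05 against 54.91 and 66.22). Notch2, a Notch receptor, was also higher in the 3′ UTR (18.01 and 12.5 against 21.95 and 30.55) and lower in the coding sequence (8.87 and 6.72 against 4.59 and 3.54). Of the 19 such genes with both regions on 1 transcript, 13 had the higher regions nearer to the 3′ end and 5 nearer to the 5′ end, and 1 was mixed. In 17 of the 19 the higher region had the smaller mean control value, as in Mapk6 and Eif4g1 but not in Notch2, so position and level cannot be told apart here.

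Position, sequence and width were not used by the rule. Each region was placed by the mean centre of its 4 highest peaks on the longest coding transcript of its gene, which was possible for 496 of the 516. The higher regions fell into the coding sequence in 281 cases (56.7%, 95% Wilson interval 52.3 to 60.9), the stop codon window (100 nt before to 100 nt after it) in 49 (9.88%, 7.55 to 12.8), the rest of the 3′ UTR in 156 (31.5%, 27.5 to 35.7) and the 5′ UTR in 10 (2.02%). All constitutive regions had 53.9%, 10.9%, 32.3% and 2.84% in that order. Lower regions had 14.4% (11.2 to 18.2) in the stop codon window, and the intervals of higher and lower regions overlapped. These intervals cover the counting of regions only. With a window of 200 nt the share of higher regions at the stop codon was 20.2%, and with peaks of a deposited false discovery rate under 20% only, it was 6.74%.

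The internal exons that held higher regions were mostly long, as were those of constitutive regions in general. Of 163 higher regions in internal exons, 126 (77.3%, 70.3 to 83.1) lay in exons of at least 400 nt. The share was 71.1% for all constitutive regions, 72.6% for those with no order, 59.4% (51.2 to 67.1) for lower regions and 39.8% for all merged regions. The intervals of higher and lower regions did not overlap, but they cover the counting of regions only, and the difference was not tested. Higher regions were also wider than lower regions (median 1010 against 759 bp), and the part of width in this difference was not tested. Coding sequence of the last exon held 20.2% of the higher, 13.1% of the lower and 16.3% of all constitutive regions.

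Every motif was searched on the transcribed strand in 200 nt of spliced transcript at the region. GGAC was found in 335 of 496 higher regions (67.5%, 63.3 to 71.5), in 60.1% of lower regions (55.1 to 64.8), in 66.1% of those with no order and in 62.1% of all merged regions. At least 2 copies of GGAC were present in 33.3% of higher and 25.3% of lower regions. DRACH, here the core AAAC or AGAC or GAAC or GGAC or TAAC or TGAC with A, C or T after it, was present in 99.2% of higher regions and in 98.2% of all merged regions, so at this window length its presence does not separate regions. GTCC, the reverse complement of GGAC with the same GC content, was found in 48.8% of higher regions and 45.5% of all constitutive regions. In windows of 100 nt GGAC was present in 40.9% of the higher regions.

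**Figure D4:**
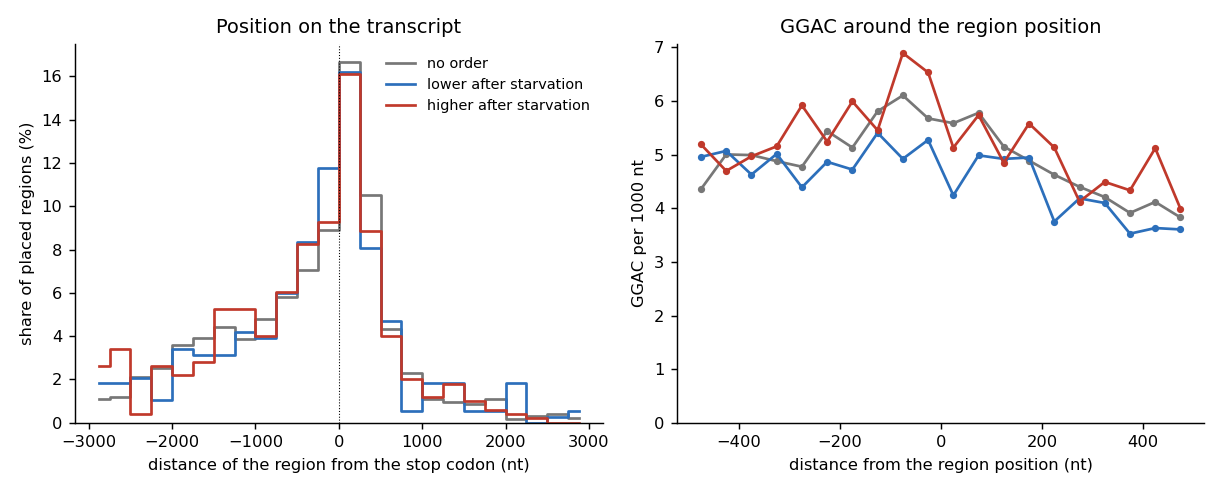
Left, the share (%) of placed higher, lower and no-order regions by the distance (nt) of their position from the stop codon, in bins of 250 nt, with negative values before it; right, the number of GGAC per 1000 nt of transcript by distance (nt) from the region position, in bins of 50 nt. In all 3 classes the bin after the stop codon is the fullest, near 16%, and the higher regions have their densest bin, 6.90 GGAC per 1000 nt, between 100 and 51 nt before the region position.

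Higher and lower regions also differed in GC content and width. The 200 nt windows of higher regions had a median GC content of 51.5%, against 48% in lower and 50% in all constitutive regions. The constitutive regions were put into 4 bins of equal size. From the lowest to the highest bin of GC content the share of higher regions went from 15.4% over 23.0% and 26.4% to 27.3%, and that of lower regions from 21.6% to 12.8%. The highest bin exceeded the lowest by 11.9 points, and by 10.97 points after scaling by medians. The difference was 19.5 points without control IP replicate 2 and 7.12 points without control IP replicate 1, so its size depended on the library left out while its direction did not. Among regions with a gap of at least 1.5 it was 7.06 points. The part of GC content in the order of the values was not tested.

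Higher regions were also wide. Their median width was 1010 bp (quartiles 620 and 1577.5), against 759 bp in lower, 883 bp in all constitutive and 361 bp in all merged regions. The share of higher regions was 18.1% in the narrowest of 4 bins and 30.3% in the widest, and that of lower regions fell from 24.8% to 10.5%. A wide region can hold several peaks of a list, of which the highest was taken, and 73.3% of higher against 81.6% of lower regions had 1 peak in each list. Among the 1757 constitutive regions with 1 peak in each list, the shares of higher regions were 16.4% and 27.8% in the narrowest and widest bin. The width of a region comes from the same peaks as its fold enrichments, and the part of several peaks in the trend was not tested. In 424 of the higher regions (82.2%) the highest peaks of all 4 lists shared a base, and their median width was 884.5 bp.

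**Figure D5:**
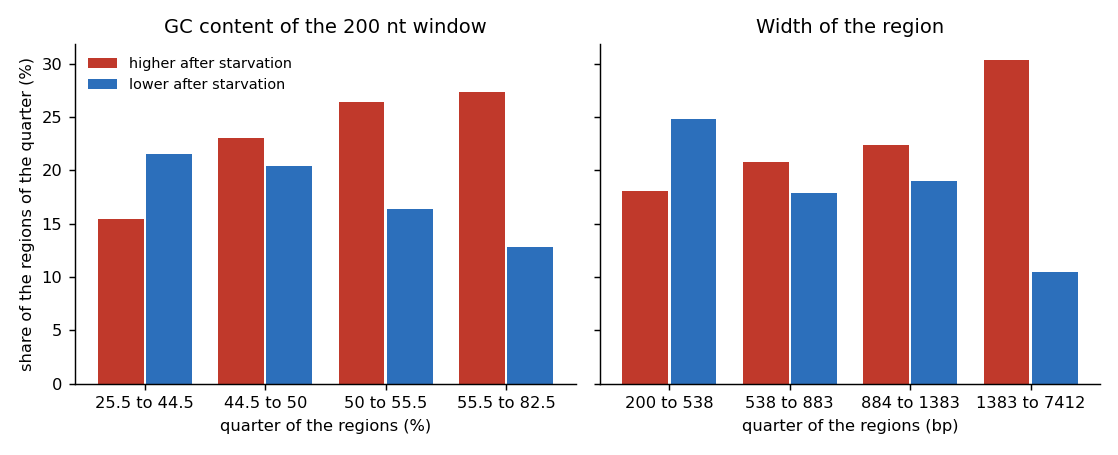
Share (%) of constitutive regions that were higher (red) or lower (blue) after starvation, in 4 equal bins of GC content of the 200 nt window (left, %) and of region width (right, bp). Higher regions go from 15.4% to 27.3% with GC content and from 18.1% to 30.3% with width, and lower regions from 21.6% to 12.8% and from 24.8% to 10.5%.

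The identity of the cells was checked through the peak lists, in which a peak shows that a transcript was present. Of 12 fibroblast markers 8 had a peak, among them Col1a2, Pdgfra and Twist1, while Col1a1, S100a4, Twist2 and Vim had none. Of the markers of other cell types, 2 of 6 epithelial (Krt8 and Krt18), 2 of 5 endothelial, 1 of 5 leukocyte and 4 of 7 neural and muscle genes had a peak. Levels of these transcripts are not given by the lists, and a part of other cells in the higher regions was not tested.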

How the data were processed

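As the labels and the study's methods describe, polyadenylated RNA was purified, m6A-containing fragments were pulled down, and directional libraries were sequenced. Reads were trimmed (Cutadapt) and aligned to mm10 (HISAT2 2.0.4) by the authors, who called peaks in each IP library over its input with MACS2. The column names of the lists are those of an older MACS series, so the caller's version is uncertain. For each peak the authors deposited a fold enrichment, a ratio over the local input background of the same library. The deposited score is minus 10 times log10 of the peak's p-value, and the deposited false discovery rate is in percent. A further table of the authors' own comparison (fold change, p-value, adjusted p-value, score and direction) was not used. Unmapped columns of sample values numbered 0. The lists give no reads or tags of a peak, so depth is unknown and no counting error of a peak could be computed.

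Samples were grouped by their titles. Peaks of the 4 lists (10103 and 9871 control, 9757 and 8974 starved) were merged where they shared at least 1 bp, starts were raised by 1, and 1284 of 38705 gene names were replaced by current symbols. Regions were placed on GENCODE M21 transcripts (GRCm38). The lists have no summits, so peak centres were used. Analyses used Python 3.11.15, numpy 2.4.6, pandas 2.3.3 and matplotlib 3.10.9, and the merging and ordering were tested on simulated data, where 2250 of 2250 regions got the right class. The regions and gene lists were chosen with earlier results of these data known. Named regions were the 12 with the largest gap whose highest peaks share a base and a gene name, the 3 on either side of the threshold, all higher regions of 6 lists (core autophagy, study autophagy genes, nutrient sensing, insulin and PI3K, m6A machinery, integrated stress response), genes with at least 3 higher regions and the 3 highest starved means; examples from other lists, and genes with regions in both directions, were chosen after their values were seen. Alternatives changed the scale, the value taken per region, the overlap, the false discovery rate, the gap, the windows and the libraries used.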

Additional observations from a re-analysis of the deposited data

How the results depend on the processing

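The count of 516 higher regions was 201 (of 997 constitutive regions, with 225 lower) with peaks of a false discovery rate under 20% only, and 239 with a gap of at least 1.5. Without 1 library at a time, it was 1062 to 1204 of 2806 to 3006 regions, with 782 to 976 lower, since a peak was then needed in 3 lists only and fewer values had to be in order. The cause of the fall with the stricter rate was not tested beyond the smaller number of regions. The share at the stop codon was 6.74% with the stricter rate and 20.2% with the window of 200 nt, and 10.2% to 12.8% without 1 library. The share with GGAC was 40.9% in windows of 100 nt, which hold fewer bases, and 67.5% to 69.6% without 1 library. The median width was 884.5 bp where the highest peaks shared a base, 1133 bp with the stricter rate, and 815.5 to 840.5 bp without 1 library. Counts under the other alternatives, in which the split of higher and lower regions turned only with the scaling by medians and the stricter rate, were 378 (1 peak in each list, chosen after seeing the data) to 514.

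With the replicate number as a block, each starved library was set against the control library of the same number, and 699 regions were higher in both pairs and 567 lower in both. Deviations of same-numbered libraries from their group means correlated with r = -0.017. This value cannot show whether libraries of the same number shared a culture or a batch, and the labels do not say. The differences between bins of GC content and width were added after seeing the data, and under these alternatives they kept their sign, at 7.06 to 19.5 and 6.22 to 14.1 points. The depth that limits these values is not in the files.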
